A study of Mus musculus with 5 samples.

Results

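Primary response genes, also called immediate early genes, are those that a neuron transcribes within minutes of synaptic activity without needing new protein. The 44 genes described here were taken as a named list of such genes, and all 44 were found among the 32531 gene symbols of the count tables. They were split by the role of the protein into 23 transcription factors and 21 effectors, the latter comprising synaptic, secreted, signalling and other proteins. The RNA came from adult mice in which Cre recombinase under the regulatory sequence of Rbp4 (line KL100) switches on an EGFP-tagged copy of the ribosomal protein Rpl10a from the Rosa26 locus. Both tissue groups carry the same alleles and are labelled as untreated: 2 libraries were made from cerebral cortex and 3 from dentate gyrus, each from ribosomes pulled down with an antibody against EGFP. The labels do not tell how many animals gave each library, so a p-value here reflects spread among libraries, which may be technical. No library of stimulated or silenced animals was analysed here, so whether these genes responded to activity in these mice was not measured.

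In neurons, calcium entry and the ERK kinases act on factors that are already bound at these genes, chiefly CREB at cAMP response elements and SRF with its partners at CArG boxes. The first proteins made are transcription factors such as Fos, Egr1 and Npas4, which in turn act on later genes, together with effectors such as Arc that act at the synapse and phosphatases of the Dusp family that switch ERK signalling off again. In the hippocampus, mature dentate granule cells are known for sparse firing, and Arc, Fos and Egr1 are used there as marks of recently active cells.

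Gene counts summed to between 22600963 and 36837908 per library. Levels are given as CPM, the count of a gene scaled to the total of its library. Markers followed the labelled tissues: the 8 markers of granule cells summed to between 5093 and 5548 CPM in dentate gyrus and to 308.3 and 411.4 CPM in cortex, and each was called higher in dentate gyrus. Of 8 layer 5 projection neuron markers, 6 were higher in cortex and 1, Bcl11b, in dentate gyrus, while 6 general excitatory neuron markers divided 3 and 3. Rbp4 itself was at 9.97 and 15.0 CPM in cortex and 9.93, 9.46 and 3.40 CPM in dentate gyrus (adjusted p = 0.408). A library of each tissue carried genes at odds with its group. In cortex replicate 1, Car8 reached 411 CPM and Ebf1 19.0 CPM, where the other cortex library had 1.44 and 2.66 CPM. In dentate gyrus replicate 2, Dcn reached 114 CPM and Dlk1 83.3 CPM, where replicates 1 and 3 of that tissue had 1.71 and 10.5 CPM of Dcn and 0.11 and 13.0 CPM of Dlk1; the cortex libraries had 35.2 and 25.8 CPM of Dcn and 25.6 and 26.0 CPM of Dlk1. The 8 layer 5 markers summed to 571.8 CPM in dentate gyrus replicate 2, against 455.1 and 441.8 CPM in replicates 1 and 3. Among them, Fezf2 was at 60.2 CPM there, against 1.82 and 17.45 CPM, whereas Bcl11b and Sulf2 were not highest there. Results are therefore also given without cortex replicate 1 and dentate gyrus replicate 2 where that changes them.

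Most of the primary response genes were more abundant in the cortex pulldown, and 3 of them were called in the other direction. The libraries of the tissues did not overlap for 40 of the 44 genes: 32 were higher in both cortex libraries than in any dentate gyrus library, and 8 were higher in all dentate gyrus libraries. Among all 18950 genes with a count, 21.2% were separated toward cortex and 19.7% toward dentate gyrus. In the quasi-likelihood test of edgeR, adjusted after Benjamini and Hochberg over 14136 genes and called at an adjusted p under 0.05, 22 of the 41 members that passed the filter on low counts were higher in cortex and 3 were higher in dentate gyrus, where 10.8% and 10.5% of all tested genes were called in these directions. With no filter, when all 44 could be tested, 24 were higher in cortex and 3 were higher in dentate gyrus, against 10.3% and 9.73% of genes, and the median log2 change (dentate gyrus minus cortex) was -1.14, against 0.03 over all genes. In bulk RNA, fewer cells expressing a gene and less RNA per cell cannot be told apart.

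**Figure D1:**
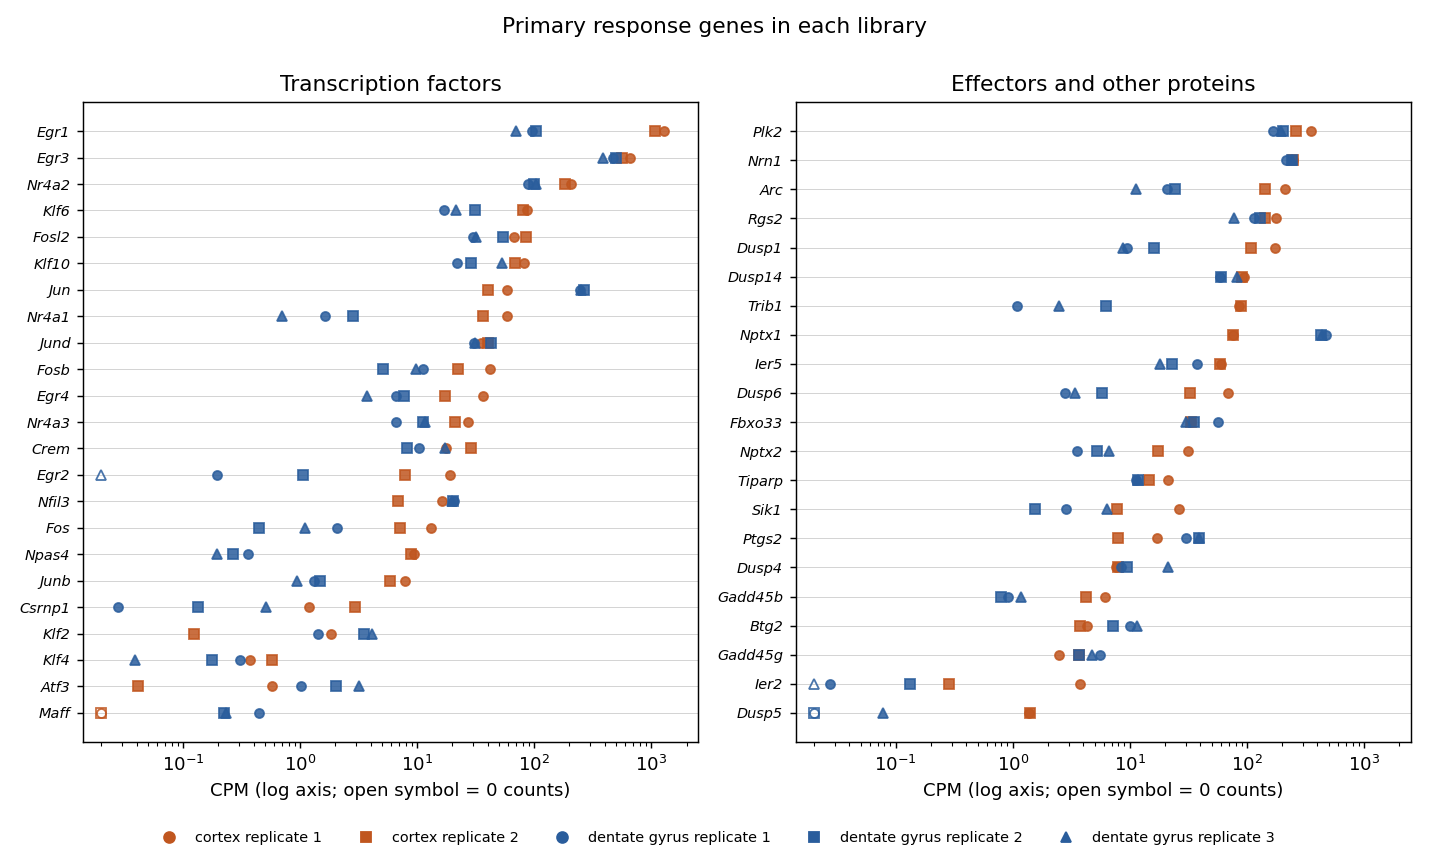
Level of each of the 44 genes in each of the 5 libraries, as CPM on a log axis, with transcription factors on the left and effectors on the right, ordered by mean level in cortex. Orange symbols are cortex and blue symbols dentate gyrus libraries, and open symbols at the left edge mark 0 counts; Egr1 spans 1292 to 69.5 CPM, whereas Jun and Nptx1 lie to the right in dentate gyrus.

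The zinc finger factors of the EGR family were led by Egr1, in cortex the highest member per kilobase of exon. For Egr1, cortex replicates 1 and 2 had 1292 and 1068 CPM, and dentate gyrus replicates 1, 2 and 3 had 96.3, 104 and 69.5 CPM; all values below follow this order. The cortex libraries lay far above all dentate gyrus libraries, with a log2 change of -3.72 (SE 0.18, adjusted p = 1.64e-06). Its paralogue Egr3 (chromosome 14, 70077203 to 70082614, plus strand, GRCm38) was at 656 and 566 CPM in cortex and at 476, 496 and 384 CPM in dentate gyrus. The Egr3 groups did not overlap, but the difference was small, with a log2 change of -0.44 (SE 0.14, adjusted p = 0.0484). Leaving out a library raised the Egr3 adjusted p to 0.28 (cortex replicate 1), 0.0567 (cortex replicate 2) or 0.128 (dentate gyrus replicate 3). Within a library, Egr1 had 1.97 and 1.89 times the reads of Egr3 in cortex and 0.202, 0.209 and 0.181 times in dentate gyrus, a ratio that does not depend on how libraries are scaled. Egr1 alone made up 47.2% and 46.5% of the summed CPM of the 23 transcription factors in cortex, but 8.98%, 8.71% and 6.82% in dentate gyrus.

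The other EGR genes were scarcer and leaned the same way. Egr2 was at 19.2 and 7.91 CPM in cortex, and dentate gyrus replicates 1, 2 and 3 held 7, 24 and 0 reads, or 0.193, 1.06 and 0 CPM. Egr4 was at 36.7 and 17.4 CPM in cortex and at 6.54, 7.72 and 3.76 CPM in dentate gyrus. Both genes were more than 2-fold higher in cortex replicate 1 than in replicate 2, and neither overlapped between tissues. The log2 changes were -5.05 for Egr2 (SE 1.18, adjusted p = 0.013) and -2.17 for Egr4 (SE 0.46, adjusted p = 0.00797). Without cortex replicate 1 the adjusted p was 0.132 for Egr2 and 0.14 for Egr4.

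AP-1 is the dimer of a Fos-family with a Jun-family protein, and its subunits split. Fos (chromosome 12, 85473890 to 85477273, plus strand) was at 13.1 and 7.13 CPM in cortex and at 2.07, 0.444 and 1.096 CPM in dentate gyrus. Every cortex library was above every dentate gyrus library, with a log2 change of -3.06 (SE 0.75, adjusted p = 0.0171). Fosb was at 42.2 and 22.4 CPM in cortex and at 11.3, 5.15 and 9.82 CPM in dentate gyrus, without overlap (log2 -1.88, SE 0.43, adjusted p = 0.0115). Without cortex replicate 1, which leaves 1 cortex library, the calls of Fos and Fosb were lost at log2 changes of -2.55 and -1.35 (adjusted p = 0.172 and 0.157). Fosl2, a Fos-related subunit with slower kinetics, was at 67.7 and 85.1 CPM in cortex and at 30.0, 53.6 and 32.0 CPM in dentate gyrus (log2 -0.99, SE 0.28, adjusted p = 0.0333). That call was lost when cortex replicate 1 (adjusted p = 0.0684) or 2 (0.188), or dentate gyrus replicate 1 (0.0656) or 3 (0.0843), was left out.

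Jun (chromosome 4, 95049034 to 95052222, minus strand) was the one transcription factor of the list that was called higher in dentate gyrus. It was at 58.2 and 40.6 CPM in cortex and at 248, 268 and 252 CPM in dentate gyrus. The dentate gyrus libraries were close to each other and all far above cortex (log2 2.37, SE 0.19, adjusted p = 2.64e-05). Its paralogue Junb (chromosome 8, 84974484 to 84978718, minus strand) had 7.92 and 5.82 CPM in cortex and at 1.32, 1.47 and 0.939 CPM in dentate gyrus, without overlap. The Junb log2 change was -2.46 (SE 0.70, adjusted p = 0.0327). This call was lost on removal of any library except dentate gyrus replicate 2, the adjusted p then being 0.212 (cortex replicate 1), 0.0976 (cortex replicate 2), 0.0547 (dentate gyrus replicate 1) or 0.0757 (dentate gyrus replicate 3). Jund, the constitutive Jun-family member, was at 34.8 and 39.9 CPM in cortex and 30.5, 43.0 and 31.4 CPM in dentate gyrus, and these values overlapped (log2 -0.10, SE 0.26, adjusted p = 0.844). Jun had 7.35 and 6.98 times the reads of Junb in cortex and 187, 183 and 268 times in dentate gyrus. Antisense genes overlap 7.3% of the exon length of Jun and 52.6% of that of Jund, and the protein-coding gene Prdx2 overlaps 7.5% of Junb, on the opposite strand. The strand setting of the counting is not given in the sources used here. These counts could therefore hold reads of the overlapping gene, or lack reads from the shared stretch. The same applies to Dusp5, Crem, Csrnp1, Tiparp and Dusp1, where 22.1%, 8.0%, 6.4%, 5.1% and 0.3% of the exon length is shared with a gene on the opposite strand.

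Atf3 and Maff, basic leucine zipper factors, were at the lower end of the list. Atf3 had 20 and 1 reads in cortex and 37, 46 and 82 in dentate gyrus, or 0.57 and 0.041 against 1.02, 2.04 and 3.21 CPM. The groups did not overlap, and the adjusted p was 0.208. Maff had 0 reads in both cortex libraries and 16, 5 and 6 in dentate gyrus. Against a floor of 3 counts over the cortex libraries together, its mean in dentate gyrus was at least 5.94-fold higher. Maff did not pass the filter on low counts, and with no filter it was not called (edgeR adjusted p = 0.243).

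The orphan nuclear receptors of the NR4A family were all higher in cortex, to different degrees. Nr4a1 (chromosome 15, 101254269 to 101274795, plus strand) was at 58.9 and 36.5 CPM in cortex and at 1.63, 2.84 and 0.704 CPM in dentate gyrus. Both cortex libraries stood more than 10-fold above any dentate gyrus library, with a log2 change of -4.80 (SE 0.53, adjusted p = 0.000202). Nr4a2 was at 206 and 182 CPM in cortex and at 88.5, 100.5 and 103 CPM in dentate gyrus, tightly grouped in each tissue (log2 -0.99, SE 0.15, adjusted p = 0.00145). Nr4a3 was at 27.4 and 20.9 CPM in cortex and at 6.62, 11.1 and 11.7 CPM in dentate gyrus (log2 -1.30, SE 0.38, adjusted p = 0.0372). Leaving out cortex replicate 1 or 2 brought the Nr4a3 adjusted p to 0.22 or 0.0764, and leaving out dentate gyrus replicate 1 or 2 to 0.0741 or 0.0504. Nr4a1 reached 0.286 and 0.201 of the reads of Nr4a2 in cortex and 0.0184, 0.0283 and 0.00681 of them in dentate gyrus.

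Npas4, a basic helix-loop-helix factor that neurons induce on depolarization with calcium entry, had 1 of the largest separations. It was at 9.37 and 8.77 CPM in cortex and at 0.358, 0.266 and 0.196 CPM in dentate gyrus, the latter resting on 13, 6 and 5 reads. The tissues were far apart and the libraries of each were close, with a log2 change of -5.02 (SE 0.75, adjusted p = 0.00111). Its dimer partner Arnt2 was also higher in cortex, at 283 and 308 CPM against 83.6, 120 and 111 CPM (log2 -1.49, SE 0.17, adjusted p = 0.000252). Crem, Nfil3 and Csrnp1 were not called. Crem, whose products include the inducible repressor ICER, was at 17.5 and 28.7 CPM in cortex and 10.4, 8.26 and 17.2 CPM in dentate gyrus (adjusted p = 0.142). Nfil3, a bZIP repressor, leaned toward dentate gyrus at 20.5, 20.4 and 19.8 CPM against 16.2 and 6.89 CPM, with an adjusted p of 0.214. Csrnp1, a nuclear protein with transactivating activity, was at 1.20 and 2.95 CPM in cortex and at most 0.509 CPM in dentate gyrus (adjusted p = 0.151).

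Of the 4 Krüppel-like zinc finger factors, 3 were tested, and 2 of these were called higher in cortex, where 10.8% of all tested genes were. Klf6 was at 86.2 and 80.4 CPM in cortex and at 17.1, 31.1 and 21.4 CPM in dentate gyrus, well apart (log2 -1.85, SE 0.28, adjusted p = 0.00113). Klf10 was at 81.6 and 69.1 CPM in cortex and at 21.8, 28.8 and 53.2 CPM in dentate gyrus (log2 -1.12, SE 0.34, adjusted p = 0.0425). The Klf10 adjusted p was 0.192 and 0.0936 without cortex replicates 1 and 2, and 0.0709 and 0.0849 without dentate gyrus replicates 1 and 2. Klf2 and Klf4, which are best known from endothelium and epithelium, were scarce. Klf2 was at 1.85 and 0.123 CPM in cortex and 1.41, 3.51 and 4.15 CPM in dentate gyrus, overlapping. Klf4 stayed under 0.6 CPM in every library and did not pass the filter on low counts.

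To show the sequences in which activity-dependent factors are known to bind, promoter windows were read for 6 members with large changes or with paralogues that went opposite ways. They run from 250 bases before to 50 bases after the RefSeq start, 5′ to 3′ on the gene's strand (RefSeq, GRCm38.p6). Capitals mark the cAMP response element (CRE) TGACGTCA, its shorter core TGACG and, on the gene's strand alone, TATAAA. CRE and core were searched on both strands, so CGTCA is a core on the opposite strand, and a full CRE holds 2 overlapping cores.
Fos (chr12:85473640-85473939, plus strand): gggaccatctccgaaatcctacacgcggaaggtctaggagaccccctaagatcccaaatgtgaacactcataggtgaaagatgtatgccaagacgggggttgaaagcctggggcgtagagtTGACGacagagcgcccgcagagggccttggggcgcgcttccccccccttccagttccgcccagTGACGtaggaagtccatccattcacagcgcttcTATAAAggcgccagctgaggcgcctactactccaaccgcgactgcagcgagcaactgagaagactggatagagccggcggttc
Npas4 (chr19:4989922-4990221, minus strand): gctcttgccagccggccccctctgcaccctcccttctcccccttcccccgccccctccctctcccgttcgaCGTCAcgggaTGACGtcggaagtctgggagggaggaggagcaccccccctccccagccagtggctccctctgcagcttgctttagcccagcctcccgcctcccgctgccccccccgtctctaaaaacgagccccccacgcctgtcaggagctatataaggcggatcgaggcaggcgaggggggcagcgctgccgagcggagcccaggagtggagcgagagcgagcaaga
Nr4a1 (chr15:101266596-101266895, plus strand): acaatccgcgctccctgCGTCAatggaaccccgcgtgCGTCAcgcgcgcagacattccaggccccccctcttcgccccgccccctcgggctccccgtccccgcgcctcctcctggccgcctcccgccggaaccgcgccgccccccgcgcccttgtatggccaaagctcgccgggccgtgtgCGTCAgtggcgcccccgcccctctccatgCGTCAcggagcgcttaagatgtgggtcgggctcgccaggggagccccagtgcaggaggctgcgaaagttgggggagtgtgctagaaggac
Junb (chr8:84978699-84978998, minus strand): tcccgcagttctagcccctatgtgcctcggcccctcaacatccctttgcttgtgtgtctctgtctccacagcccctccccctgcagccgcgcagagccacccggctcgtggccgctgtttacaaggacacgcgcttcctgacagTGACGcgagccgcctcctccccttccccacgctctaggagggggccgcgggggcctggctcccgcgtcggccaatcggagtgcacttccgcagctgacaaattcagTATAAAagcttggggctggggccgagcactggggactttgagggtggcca
Jun (chr4:95052173-95052472, minus strand): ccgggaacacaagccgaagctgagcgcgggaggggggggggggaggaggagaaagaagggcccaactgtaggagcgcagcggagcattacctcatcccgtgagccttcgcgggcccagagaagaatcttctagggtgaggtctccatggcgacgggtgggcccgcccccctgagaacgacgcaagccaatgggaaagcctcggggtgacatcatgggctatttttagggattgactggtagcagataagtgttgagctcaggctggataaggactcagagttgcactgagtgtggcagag
Dusp1 (chr17:26508423-26508722, minus strand): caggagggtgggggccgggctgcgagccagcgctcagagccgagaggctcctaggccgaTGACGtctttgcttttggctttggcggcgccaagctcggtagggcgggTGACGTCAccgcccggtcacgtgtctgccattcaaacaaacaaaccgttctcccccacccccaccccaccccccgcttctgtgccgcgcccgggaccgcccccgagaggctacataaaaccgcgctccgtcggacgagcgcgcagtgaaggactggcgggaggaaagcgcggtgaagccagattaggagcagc

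In these windows, Nr4a1 carried 4 cores and Dusp1 carried 3, of which 2 form a full CRE. Fos and Npas4 carried 2 each, Junb carried 1 and Jun held no exact match to a searched pattern. The Jun window does hold TGACATCA, which differs from the full CRE by a base. Such near matches were not searched in any window. The table of promoters matched 32 of the 44 members, and Egr1, Egr3 and Arc were among those it did not match. At least 1 core was found for 21 of these 32 genes (65.6%), against 23% of 27025 genes in the table. A full CRE was found for 4 (Btg2, Plk2, Maff and Dusp1; 12.5% against 2.03%), and a CArG box on either strand for 2 (Egr2 and Dusp5; 6.25% against 1.81%). The EGR core GCGGGGGCG, on both strands, occurred in 5 (15.6% against 3.31%), all transcription factors: Klf4, Fosl2, Fosb, Klf2 and Nr4a1. TATAAA was present in 4 (12.5% against 9.77%) and the AP-1 motif TGANTCA in 1 (3.12% against 8.97%). Cores were in 11 of 15 members called higher in cortex, in 1 of 2 called higher in dentate gyrus and in 9 of 15 that were not called. They were in 15 of 19 transcription factors and 6 of 13 effectors. These are letter matches in a short window that leaves out distal enhancers, and base composition, which differs between promoters, was not matched.

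The effectors opened with the synaptic proteins. Arc (chromosome 15, 74669083 to 74672570, minus strand), which promotes endocytosis of AMPA receptors at the synapse, had 213 and 144 CPM in cortex and at 20.8, 24.1 and 11.3 CPM in dentate gyrus. The groups were far apart, with a log2 change of -3.25 (SE 0.31, adjusted p = 8.03e-05). Nrn1, a membrane-anchored neuritin that promotes neurite growth, was nearly level at 245.5 and 248 CPM in cortex and 214, 244 and 243 CPM in dentate gyrus (log2 -0.08, SE 0.13, adjusted p = 0.739). Arc thus had 0.868 and 0.58 of the reads of Nrn1 in cortex and 0.0973, 0.099 and 0.0467 of them in dentate gyrus. Exons of Fars2 on the opposite strand overlap 22.3% of the exon length of Nrn1.

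The neuronal pentraxins, secreted proteins that cluster AMPA receptors, moved in opposite directions. Nptx1 (chromosome 11, 119538719 to 119547753, minus strand) had 76.2 and 76.3 CPM in cortex and at 472, 434 and 442 CPM in dentate gyrus. The libraries agreed closely within each tissue, and the log2 change was 2.56 (SE 0.13, adjusted p = 2.26e-06). Nptx2 (chromosome 5, 144545902 to 144557478, plus strand) was at 31.7 and 17.5 CPM in cortex and at 3.53, 5.24 and 6.65 CPM in dentate gyrus, all dentate gyrus values being lower (log2 -2.26, SE 0.44, adjusted p = 0.0052). Its adjusted p was 0.0905 without cortex replicate 1. Reads of Nptx1 were 2.4 and 4.37 times those of Nptx2 in cortex and 134, 82.8 and 66.5 times in dentate gyrus.

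**Figure D2:**
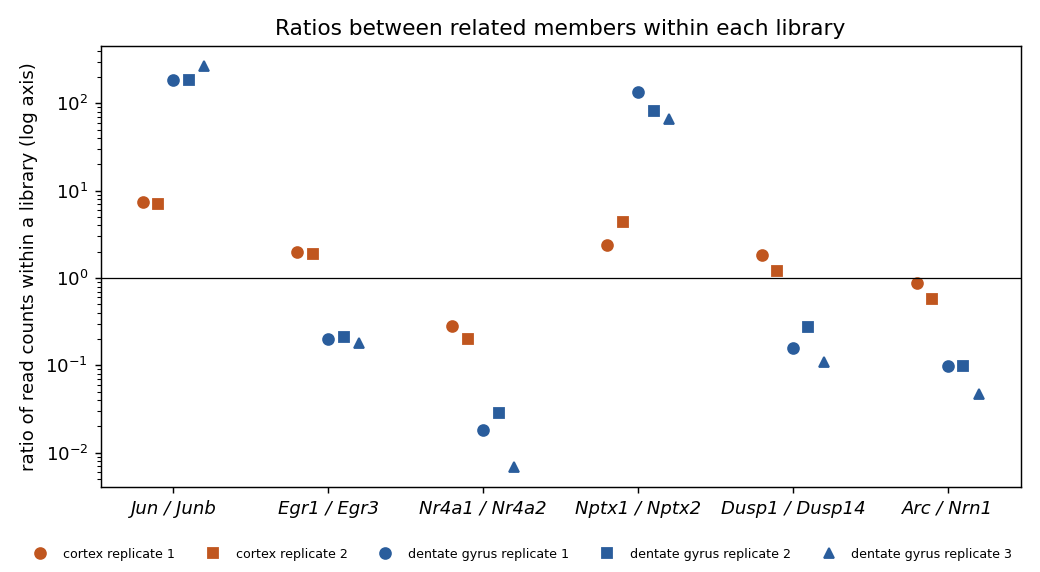
Ratio of the read counts of related members within each library, on a log axis, with orange symbols for cortex and blue symbols for dentate gyrus libraries; the line marks equal counts. The Jun to Junb ratio is 6.98 and 7.35 in cortex and 183 to 268 in dentate gyrus, and the Egr1 to Egr3 ratio falls from 1.89 and 1.97 to at most 0.209. The pairs were chosen after the values were seen.

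Among the MAP kinase phosphatases, which dephosphorylate ERK and related kinases, 2 of 5 were called higher in cortex, where 10.8% of all tested genes were. Dusp1 (chromosome 17, 26505590 to 26562128, minus strand) had 174 and 109 CPM in cortex and at 9.38, 16.2 and 8.81 CPM in dentate gyrus (log2 -3.63, SE 0.32, adjusted p = 4.78e-05). The ERK-selective Dusp6 was at 68.9 and 32.7 CPM in cortex and at 2.79, 5.77 and 3.40 CPM in dentate gyrus (log2 -3.68, SE 0.44, adjusted p = 3e-04). Both were several-fold above every dentate gyrus library in each cortex library. Dusp5 had 48 and 34 reads in cortex and 0, 0 and 2 in dentate gyrus, and its adjusted p of 0.0501 was just past the threshold. It became 0.0318 without dentate gyrus replicate 3, which held these 2 reads, and 0.0808 or 0.0908 without replicate 1 or 2 of that tissue. Dusp14 was at 94.8 and 91.5 CPM in cortex and 59.2, 59.6 and 81.9 CPM in dentate gyrus (adjusted p = 0.134). Dusp4 was at 7.55 and 7.95 CPM in cortex and 8.38, 9.50 and 21.0 CPM in dentate gyrus (adjusted p = 0.358).

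Of the other signalling and turnover proteins, Trib1 and Ptgs2 lay at the extremes. Trib1, a pseudokinase that guides proteins to ubiquitination (chromosome 15, 59648350 to 59657099, plus strand), was at 86.3 and 88.9 CPM in cortex and at 1.08, 6.21 and 2.50 CPM in dentate gyrus. The cortex libraries agreed and stood far above the others (log2 -4.77, SE 0.57, adjusted p = 0.000319). Ptgs2, the inducible cyclooxygenase COX-2 of prostaglandin synthesis (chromosome 1, 150100031 to 150108227, plus strand), was higher in dentate gyrus, at 30.2, 39.3 and 39.3 CPM against 17.0 and 7.87 CPM (log2 1.54, SE 0.37, adjusted p = 0.0158). The Ptgs2 adjusted p was 0.106 without cortex replicate 2, the lower of the cortex libraries. Plk2, a polo-like kinase that acts in homeostatic synaptic scaling, was at 350.1 and 263 CPM in cortex and at 166, 203 and 196 CPM in dentate gyrus (log2 -0.70, SE 0.16, adjusted p = 0.012), with an adjusted p of 0.135 without cortex replicate 1. Sik1, a kinase that phosphorylates CREB coactivators of the CRTC family, was at 26.5 and 7.83 CPM in cortex and 2.87, 1.55 and 6.42 CPM in dentate gyrus (log2 -2.25, SE 0.69, adjusted p = 0.0431). Leaving out cortex replicate 1 gave Sik1 a log2 change of -1.11 and an adjusted p of 0.492, and leaving out dentate gyrus replicate 1 or 2 gave 0.0877 or 0.0782.

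The members of this group that were not called differed less. Rgs2, which speeds the shut-off of G protein signals, was at 177.5 and 144 CPM in cortex and 115, 130.4 and 77.4 CPM in dentate gyrus (adjusted p = 0.096). Leaving out dentate gyrus replicate 2 brought the Rgs2 adjusted p to 0.0441, and leaving out replicate 1 or 3 of that tissue brought it to 0.0987 or 0.198. Tiparp, a mono-ADP-ribosyltransferase, was at 21.3 and 14.5 CPM against 11.3, 11.7 and 11.8 CPM (adjusted p = 0.263), and Fbxo33, an F-box protein, was at 33.5 and 33.0 CPM against 57.1, 35.5 and 30.2 CPM (adjusted p = 0.551).

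The nuclear coregulators and the GADD45 stress-response proteins were scarcer, apart from Ier5. Ier5 was at 60.2 and 58.5 CPM in cortex and at 37.8, 22.9 and 18.1 CPM in dentate gyrus, without overlap (log2 -1.17, SE 0.31, adjusted p = 0.0251). That call was lost without cortex replicate 1 (adjusted p = 0.109) or 2 (0.0891) and without dentate gyrus replicate 2 (0.0546) or 3 (0.0582). Btg2, an antiproliferative protein that recruits mRNA deadenylases, leaned the other way at 10.1, 7.19 and 11.5 CPM in dentate gyrus against 4.27 and 3.77 CPM (adjusted p = 0.116). Ier2 had 131 and 7 reads in the cortex libraries and 1, 3 and 0 in dentate gyrus and did not pass the filter; with no filter it was called higher in cortex (adjusted p = 0.0345). Gadd45b was at 6.18 and 4.18 CPM in cortex and 0.91, 0.799 and 1.17 CPM in dentate gyrus (adjusted p = 0.0574), and Gadd45g overlapped at 2.48 and 3.69 against 5.54, 3.69 and 4.78 CPM (adjusted p = 0.593).

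**Figure D3:**
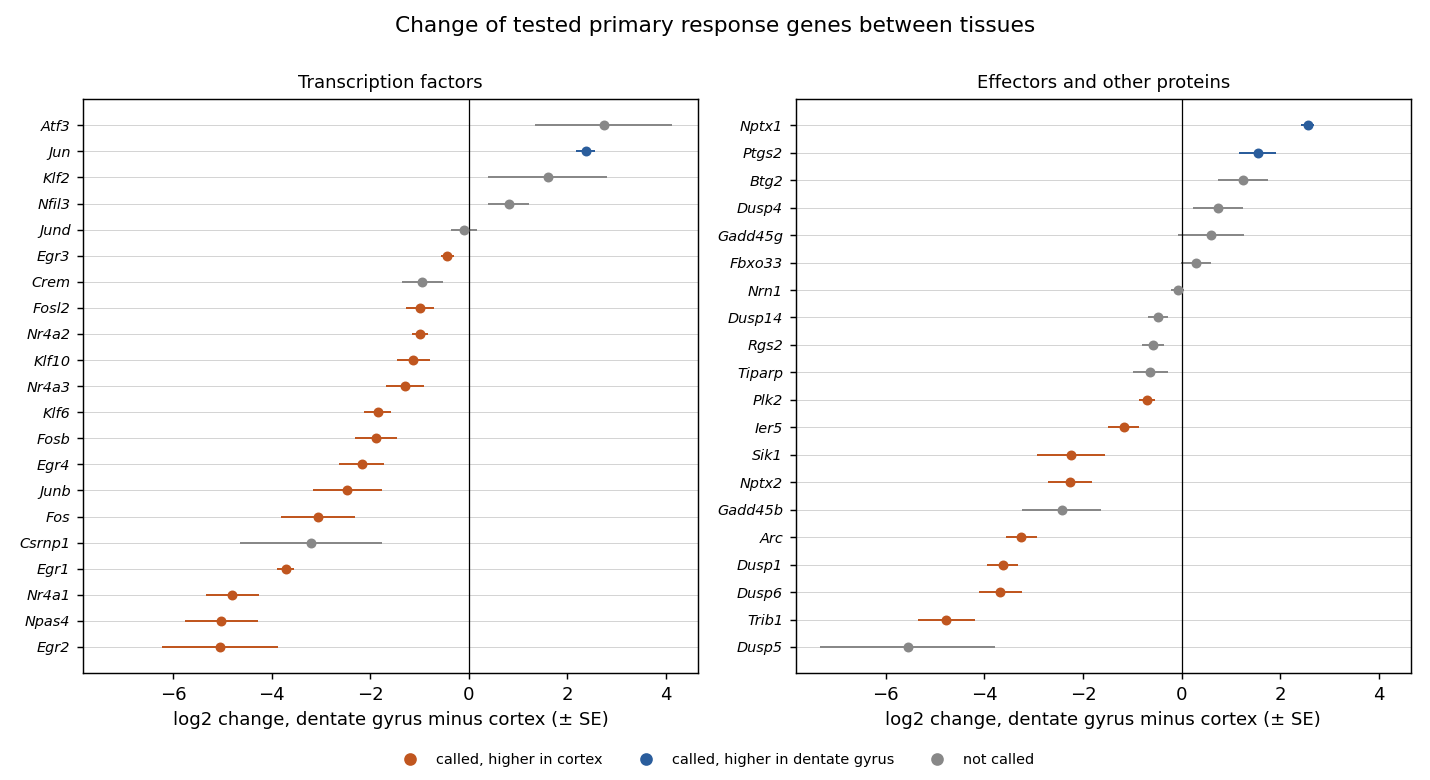
Fitted log2 change (dentate gyrus minus cortex) with its standard error for the 41 tested members, transcription factors on the left and effectors on the right; orange marks members called higher in cortex, blue those called higher in dentate gyrus and grey those not called. Jun stands alone in blue among the factors, and Nptx1 and Ptgs2 among the effectors.

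Set side by side, both classes were mostly lower in dentate gyrus. Libraries were separated toward cortex for 17 of 23 transcription factors and 15 of 21 effectors, where 21.2% of all genes with a count were. Toward dentate gyrus it was 4 of 23 and 4 of 21, near the share of all such genes, 19.7%. Among members that passed the filter, 14 of 21 factors and 8 of 20 effectors were called higher in cortex, against 10.8% of tested genes. Toward dentate gyrus, 1 factor and 2 effectors were called, against 10.5%. With no filter, edgeR gave far smaller adjusted p-values for some members, for Egr1 2.63e-142 against 1.64e-06. In that fit, 14 of 23 factors and 10 of 21 effectors were higher in cortex, against 10.3% of genes. Toward dentate gyrus there were 1 factor and 2 effectors, not above the share of 9.73% of genes. The median log2 change over all members of a class in that fit was -1.29 for the factors and -0.70 for the effectors. The called effectors ran from Trib1, at a log2 change of -4.77, to Nptx1, at 2.56. Nrn1, which was not called, was nearly level at -0.08. The difference between the classes was not tested, since members are not replicates. The order of levels per kilobase of exon (CPM divided by exon length, GENCODE M21) was led in cortex by Egr1 at 263, Egr3 at 139 and Nrn1 at 110 CPM per kilobase. In dentate gyrus it was led by Nrn1 at 104, Egr3 at 102, Nptx1 at 86.2 and Jun at 80.2 CPM per kilobase, with Egr1 in place 10 at 20.0. The libraries of Egr1, Egr3 and Nrn1 were apart from each other in cortex, whereas in dentate gyrus those of Nrn1 and Egr3, of Egr3 and Nptx1, and of Nptx1 and Jun overlapped.

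The number of calls depended on the cortex libraries, which differed from each other in these genes. Of the 44 members, 32 were higher in cortex replicate 1 than in replicate 2, against 50.3% of all tested genes (log2 of CPM plus 0.5). Over 1.5-fold higher in replicate 1 were 14 members (31.8%), and 2 (4.55%) were so in replicate 2. The shares of all tested genes were 16.8% and 17.4%. Among the 22 members called higher in cortex, 20 were higher in replicate 1, against 51.2% of all 1528 genes called in that direction. Sik1, Egr2, Egr4, Dusp6, Fosb and Fos differed 3.24-, 2.35-, 2.08-, 2.09-, 1.87- and 1.78-fold, whereas Npas4, Trib1, Klf6 and Ier5 differed by at most 1.07-fold. The library with the higher values was the one that held Car8 and Ebf1, and whether these are linked was not tested. Without cortex replicate 1, 9 members were called higher in cortex (5 factors and 4 effectors), where 5.98% of tested genes were. Without cortex replicate 2 there were 16 (9 factors and 7 effectors), against 6.34% of genes. With cortex replicate 1 and dentate gyrus replicate 2 both left out there were 10 (6 factors and 4 effectors), against 5.42%. Jun and Nptx1 were called higher in dentate gyrus, and Egr1, Npas4, Nr4a1, Nr4a2, Arc, Dusp1, Dusp6, Klf6 and Trib1 higher in cortex, in the main analysis and under each of the 14 alternatives that changed libraries, scaling, filter or test.

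**Figure D4:**
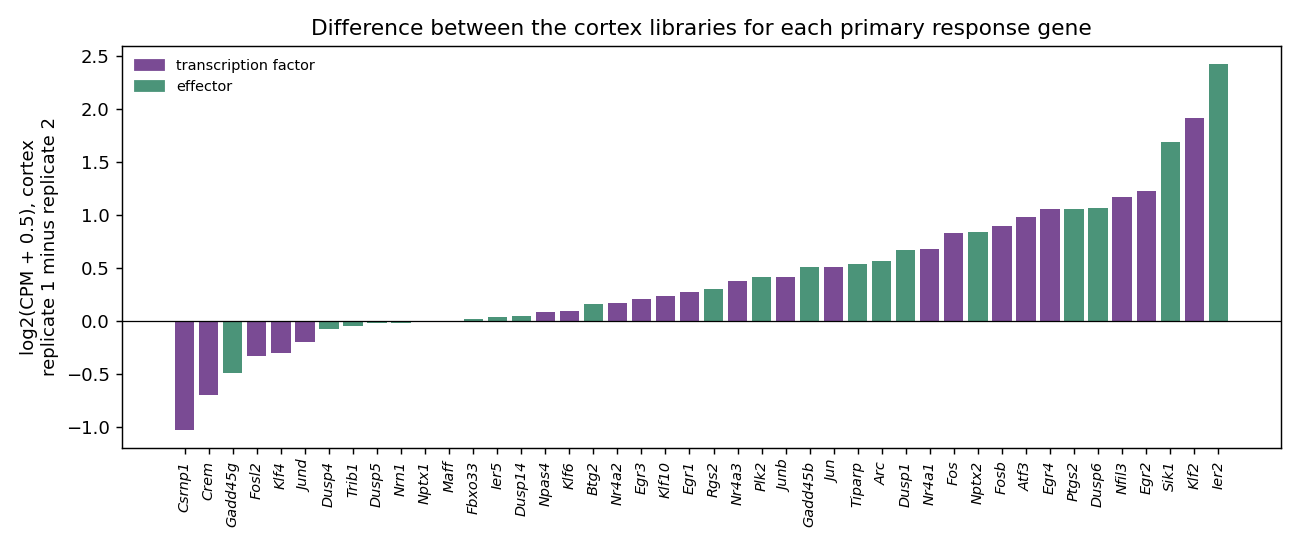
Difference in log2(CPM + 0.5) between cortex replicates 1 and 2 for each member, sorted, with transcription factors in purple and effectors in green. Bars above 0 are higher in replicate 1, as 32 of the 44 members were.

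Genes for kinases and factors that act upstream were called more often toward dentate gyrus (45.2%) than toward cortex (16.1%). Of all tested genes, 10.5% and 10.8% were called in these directions. Of 31 such genes, all tested, 5 were called toward cortex and 14 toward dentate gyrus, with a median log2 change of 0.55, against 0.02 over all tested genes; leaving out cortex replicate 2 reduced the 14 to 9. In cortex, Camk4, a nuclear calcium-dependent kinase that phosphorylates CREB, was at 602 and 598 CPM, against 104, 116 and 118.5 CPM in dentate gyrus (log2 -2.41, SE 0.12, adjusted p = 2.03e-06). Mef2c, Arnt2 and Camkk2 were also higher in cortex, with log2 changes of -1.39, -1.49 and -1.1. In dentate gyrus, Mapk3, a kinase gene of the ERK pathway, and Map2k1, which acts above it, were higher, with log2 changes of 1.52 and 1.42, as were Camkk1 at 2.36 and Mkl2, a coactivator of SRF, at 1.02. Creb1 was at 66.6 and 64.0 CPM in cortex and 116, 93.0 and 127 CPM in dentate gyrus (log2 0.78, SE 0.19, adjusted p = 0.0183). Srf, at 47.3 and 39.2 against 42.7, 48.2 and 51.7 CPM, overlapped.

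Other activity-regulated genes, among them later targets, were also counted. Of 30 genes, 26 were tested, and 8 (30.8%) were called toward cortex and 2 (7.69%) toward dentate gyrus. The shares of all tested genes were 10.8% and 10.5%, so the calls toward dentate gyrus were not above that share. The median log2 change among the 26 tested genes was -0.35. Homer1, a postsynaptic scaffold gene, was at 845 and 718 CPM in cortex and 206, 203 and 197 CPM in dentate gyrus (log2 -1.95, SE 0.12, adjusted p = 5.7e-06). Pcsk1, a prohormone convertase, Cdkn1a, a cell cycle inhibitor, and Vgf, a neuropeptide precursor, had log2 changes of -3.81, -3.18 and -3.48. Scg2, a secretogranin, and Errfi1, an inhibitor of EGF receptor signalling, were higher in dentate gyrus by 0.65 and 0.80 on the log2 scale. Both calls were lost when cortex replicate 2 was left out, and 1 gene of the list was called in that direction on leaving out any 1 dentate gyrus library. Bdnf, the neurotrophin gene, was at 39.0 and 38.4 CPM in cortex and at 77.4, 60.8 and 51.7 CPM in dentate gyrus, without overlap but with an adjusted p of 0.0619.

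**Figure D5:**
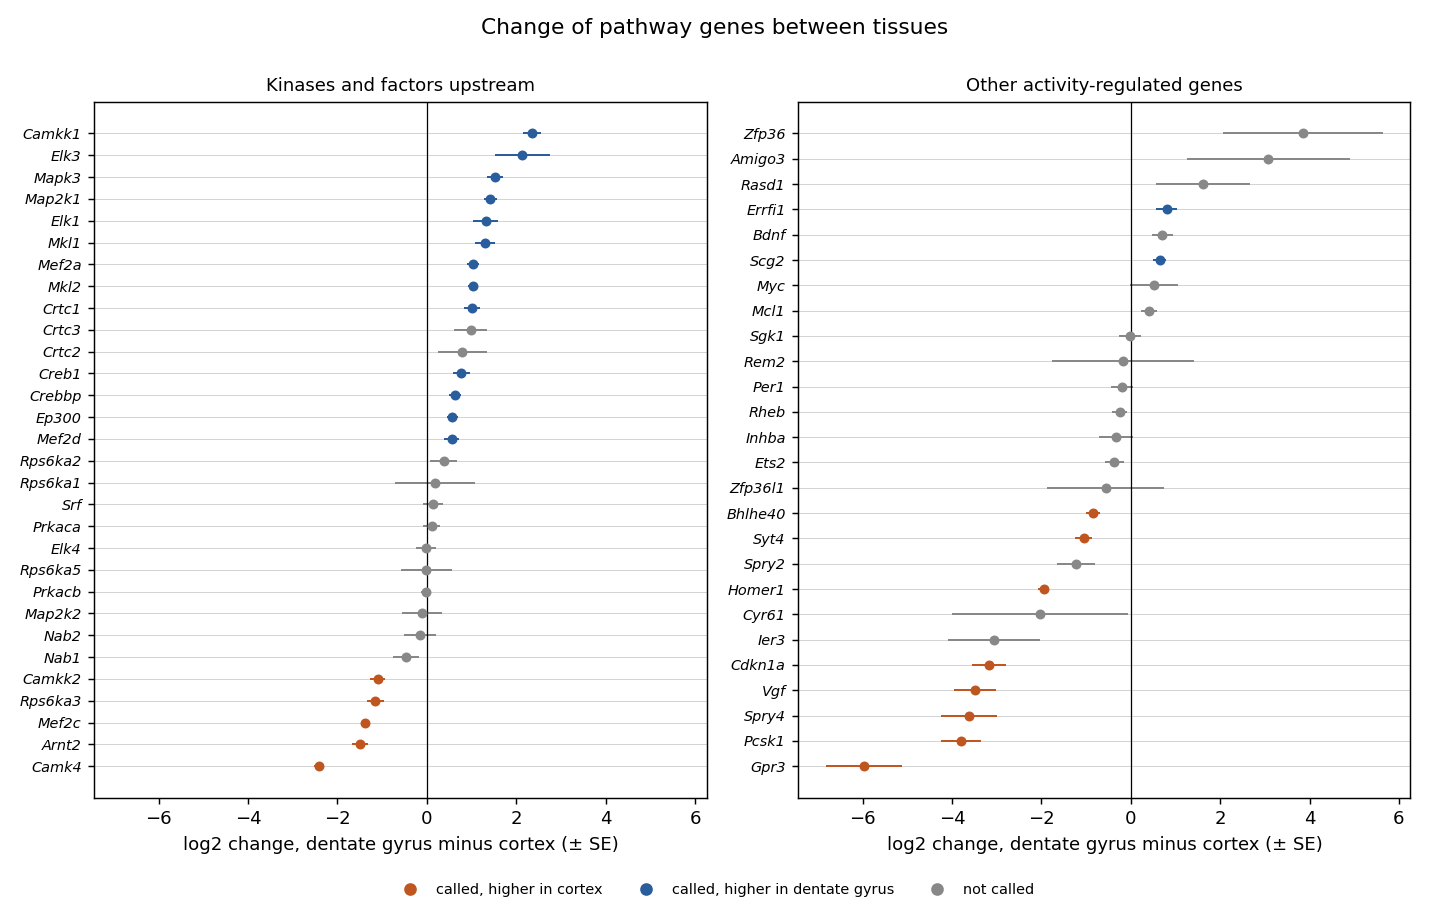
Fitted log2 change (dentate gyrus minus cortex) with its standard error for tested genes upstream of the primary response (left, 30 of the 31 shown) and for other activity-regulated genes (26 genes, right), in the colours used for the members. Blue points outnumber orange points on the left, and orange points outnumber blue on the right (8 against 2).

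Markers of other cells moved with the members in part. The 8 GABAergic interneuron markers summed to 907 and 897 CPM in cortex and to 186 to 222 CPM in dentate gyrus. Of these markers, 5 were called higher in cortex and Gad1 higher in dentate gyrus. Most of the cortex sum came from Sst, at 699 and 641 CPM. The 10 astrocyte markers summed to 1208 and 1223 CPM in cortex and 655 to 816 CPM in dentate gyrus, and most of this sum came from Slc1a2. While 4 were called higher in cortex, the fitted changes divided into 5 toward cortex and 5 toward dentate gyrus (median log2 change -0.13). The 9 oligodendrocyte markers summed to 230 and 313 CPM in cortex and 164 to 225 CPM in dentate gyrus, with 2 higher in cortex. The 8 microglia markers summed to 10.6 and 11.03 CPM in cortex and 1.35 to 6.03 CPM in dentate gyrus, and C1qa was at 0 in every library; no marker was called by edgeR, while 1, Cx3cr1, had an unadjusted p under 0.05 and 1 was called by DESeq2 and by limma voom. The 10 vascular markers summed to 21.8 and 26.4 CPM in cortex and 11.6 to 38.3 CPM in dentate gyrus, with Cldn5 at 0 in both cortex libraries; 0 were called by edgeR, DESeq2 or limma voom, and 0 had an unadjusted p under 0.05. The part of interneurons, astrocytes and oligodendrocytes in the higher cortex values was not tested.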

How the data were processed

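RNA bound to EGFP-tagged ribosomes was measured in 2 cerebral cortex and 3 dentate gyrus libraries. Each library came with a deposited table of raw counts by gene symbol, which the authors made, per the submitters' processing notes, with STAR 2.0.0e, HTSeq and the mm10 genome. Annotation and strand setting: not given in the sources used here. The summary classes for reads with no feature (10.59% to 14.83%), for ambiguous reads (1.81% to 1.87%) and for reads placed more than once (25.03% to 31.76%) entered neither library sizes nor tests.

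CPM are counts over the sum of gene rows after TMM scaling in edgeR. Genes were filtered with filterByExpr and tested with edgeR 4.0.16 (quasi-likelihood F test, tissue as the only term) in R 4.3.3, with Benjamini-Hochberg adjustment over all 14136 tested genes. The alternatives were RLE and upper quartile scaling, no filter, a CPM of at least 1 in at least 2 libraries, DESeq2 1.42.0, limma 3.58.1 voom, robust dispersion, a replicate block, each library left out, and cortex replicate 1 with dentate gyrus replicate 2 left out. On simulated counts for this comparison (13669 genes tested) the procedure recovered 24 of 98 genes changed 2-fold and 47 of 98 changed 4-fold, with 2 false calls among 73. Exon lengths and positions are from GENCODE M21 (GRCm38, the build of mm10).

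The members, the classes and the lists of pathway genes and markers were chosen with earlier results of these data known. All members are named, with the 4 genes of smallest adjusted p in each direction of a pathway list (1 of these is not reported here), and marker genes; Creb1, Srf, Mapk3, Bdnf, Car8, Ebf1, Dcn and Dlk1 were named after their values were seen. Floors cover counting error only.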

Additional observations from a re-analysis of the deposited data

How the results depend on the processing

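The count of all called genes, 3009, ran from 1886 to 2775 when 1 library was left out and fell to 1578 when cortex replicate 1 and dentate gyrus replicate 2 were left out together. The 22 members higher in cortex ran from 9 to 19 when 1 library was left out (9 without cortex replicate 1) and were 10 without both libraries. The median log2 change of the tested effectors, -0.67, ran from -0.93 to -0.46 on leaving out 1 library and was -0.55 without both. The median of the tested transcription factors, -1.30, ran from -1.53 to -1.10. Other scalings, filters, DESeq2, limma voom and robust dispersion gave 22 to 25 members higher in cortex and 3 in dentate gyrus. Over all 12901 to 18950 genes tested in these settings, 1534 to 1951 were higher in cortex and 1398 to 1992 in dentate gyrus. No tested member that was called changed direction, 11 of the 25 called members passed under every alternative and 14 lost the call under at least 1, while 3 tested but uncalled members (Dusp5, Gadd45b and Rgs2) gained it under some, and Ier2, untested in the main analysis, was called with no filter. The cause was not tested. Libraries share replicate numbers 1 and 2 across tissues. Their deviations from the tissue means did not correlate (Pearson's r across genes -0.01 for each same-numbered pair). With 2 cortex libraries these deviations mirror each other, so this cannot tell whether same-numbered libraries came from the same animals. With a replicate block, 2237 of 14136 genes were called, 1126 toward cortex and 1111 toward dentate gyrus. Of the 41 tested members, 17 were called toward cortex and 3 toward dentate gyrus, and the median of the factors was -1.59. Of the 44 members, 8 were under 5 CPM in both tissues, and 3 of these did not enter the test.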
